A study of Mus musculus with 3 samples.

Results

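The 36 genes described here encode the enzymes that load amino acids onto transfer RNA in the cytosol, together with genes of the ATF4 amino acid response. They were chosen by name, from the gene names that the array files give to non-control probes, and all 36 were found among the 27724 genes on the arrays. They comprise 20 cytosolic aminoacyl-tRNA synthetases, 6 regulators and targets of the ATF4 pathway, 6 enzymes of serine, one-carbon and asparagine synthesis, and 4 amino acid transporters. The second group is called the regulators below for short, although Chac1 in it is an enzyme induced downstream of ATF4. The study measured RNA of C3H10T1/2 cells, a mouse mesenchymal line widely used to score cell transformation, on 3 single-colour Agilent arrays of 1 slide. The groups were an untreated culture, a culture given hexavalent chromium, Cr(VI), at 0.01 uM, and a culture given Cr(VI) at 1 uM. In every group 2000 cells were seeded per flask into 3 flasks of DMEM. Chromium was added 24 h later, left on for 48 h and washed off, and the cells were grown on to day 15 before RNA was prepared, so the arrays describe cells days after the metal was removed. The labels do not say whether RNA of the 3 flasks was pooled. Each group has 1 array, so no test between groups was possible, and all differences below compare 1 array with 1 other.

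ATF4 is a transcription factor whose protein is made more efficiently when kinases such as GCN2 and PERK phosphorylate the initiation factor eIF2alpha, which happens when amino acids are short or proteins misfold. It binds composite C/EBP-ATF response elements in the promoters of amino acid synthesis enzymes, amino acid transporters and many synthetases, often with partners of the C/EBP family. Because ATF4 is set mainly at translation, the level of Atf4 mRNA need not follow that of its protein, and arrays measure only the mRNA.

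The promoters show which members carry the letters of that element. RefSeq promoter sequence (GRCm38.p6) was present for 27 of the 36 genes, and the 250 bases before each gene's start were searched on both strands for TGATGNAA, the core of the C/EBP-ATF element. The match was found in 5 of the 27 (18.5%), against 3.91% of 27025 genes with a promoter in the same table. These 5 windows hold the match in capitals with up to 26 bases on either side, cut at the gene's start, in the direction of the gene. They are shown because they include the member with the largest difference at 1 uM (Chac1) and the gene on which the element was worked out in detail (Asns).

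Chac1, chr2:119351023-119351082, plus strand, match 193 bases before the start: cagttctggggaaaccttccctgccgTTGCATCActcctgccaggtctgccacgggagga
Tars, chr15:11399659-11399699, minus strand, 15 bases before: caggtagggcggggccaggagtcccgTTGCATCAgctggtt
Aars, chr8:111033704-111033763, plus strand, 112 bases before: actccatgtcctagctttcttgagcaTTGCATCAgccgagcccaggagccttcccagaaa
Gars, chr6:55037945-55038000, plus strand, 30 bases before: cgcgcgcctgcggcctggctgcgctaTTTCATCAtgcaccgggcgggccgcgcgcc
Asns, chr6:7693210-7693258, minus strand, 23 bases before: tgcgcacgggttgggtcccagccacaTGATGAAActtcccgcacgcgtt

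In Chac1, Tars, Aars and Gars the match lies on the strand opposite to the gene, so it reads TTGCATCA or TTTCATCA, and in Asns it lies on the gene's own strand. A match is a description of letters and not of binding. At 1 uM the log2 differences of these 5 genes from untreated were 1.14 for Chac1, 0.50 for Tars, 0.43 for Aars, 0.40 for Gars and -0.0042 for Asns. These members were thus higher or level. Among the other ATF4 targets described below, genes with the match lay on both sides of 0. Of 6 serine, one-carbon and asparagine genes, all with a promoter in the table, Asns alone held the match. A second motif, the ER stress element, was searched likewise and found in 0 of the 27 member promoters and in 0.13% of all genes, but in 5 of 12 promoters (41.7%) of a list of ER chaperone genes.

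Signals are log2 processed intensity minus the 75th percentile of all probes on that array, and a gene is represented by its brightest probe. All 36 members were well above background on all 3 arrays and none was saturated. Of 41167 usable probes, the share well above background was 41.8% untreated, 36.4% at 0.01 uM and 41.5% at 1 uM. Replicate spots of other probes had a median SD of 0.058, 0.057 and 0.062 on the log2 scale in that order. The scanner's error model, which assumes a multiplicative error of 0.1 per spot, gave standard errors between 0.204 and 0.21 for the members' log2 differences at 1 uM. Both are technical errors and leave out the spread between cultures. Of 10 fibroblast and mesenchymal marker genes, 8 at 1 uM and 9 untreated were well above background, with Fap below on all arrays and Thy1 below at 1 uM. Relative to untreated, Thy1 was at least 50.2-fold lower on the 1 uM array, Pdgfrb 1.803-fold lower, Col3a1 1.64-fold lower and Lum 1.97-fold higher. The summed level of the 10 markers was 9.26 at 0.01 uM and 8.68 at 1 uM, against 8.91 untreated (log2), but Col1a1, Col1a2 and S100a4, which make up much of it, were saturated on all 3 arrays. Leukocyte markers above background numbered 2 of 6 at 1 uM (Cd68 and Aif1) and 1 of 6 on the other arrays, and Ptprc was below background throughout. Their summed level lay between 2.10 and 2.18. No epithelial marker of 4 was above background on any array, and 1 endothelial marker of 4 was (Cdh5, at 1 uM only), with summed endothelial levels of -2.10 at 0.01 uM and -0.82 at 1 uM, against -2.60 untreated. The part of these marker shifts, and of other cells, in the members' differences was not tested, and in bulk RNA fewer cells of a type and less RNA per cell cannot be told apart.

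After 1 uM Cr(VI), the 3 enzymes of serine synthesis (Phgdh, Psat1 and Psph) were at least 1.5-fold higher, as were Shmt2, Chac1 and Cars, and Sesn2 was 1.51-fold lower. Atf4 differed by -0.33, within 1.5-fold, and by 0.35 with spike-in scaling. Of the 36 members, 6 were at least 1.5-fold higher (16.7%) and 1 was at least 1.5-fold lower (2.78%). All 12452 genes compared gave shares of 13.9% on the higher side and 13.4% on the lower. Scaled on the percentile of all probes, the share of higher members is therefore close to that of genes at large. At 2-fold the count was 1 member higher (Chac1) and 0 lower, against 5.67% and 4.86% of all genes. The members' median log2 difference was 0.17, with 23 of 36 above 0, while the median of all genes was -0.04, with 46.9% above 0. The closeness of the shares at 1.5-fold depends on the scaling. Quantile normalization gave 11 of 36 members on the higher side, beside 1839 of 12450 genes. Loess gave 10 of 36 members, beside 2139 of 12452 genes. With both, the share of higher members was larger than that of all genes, so the closeness is not settled.

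**Figure D1:**
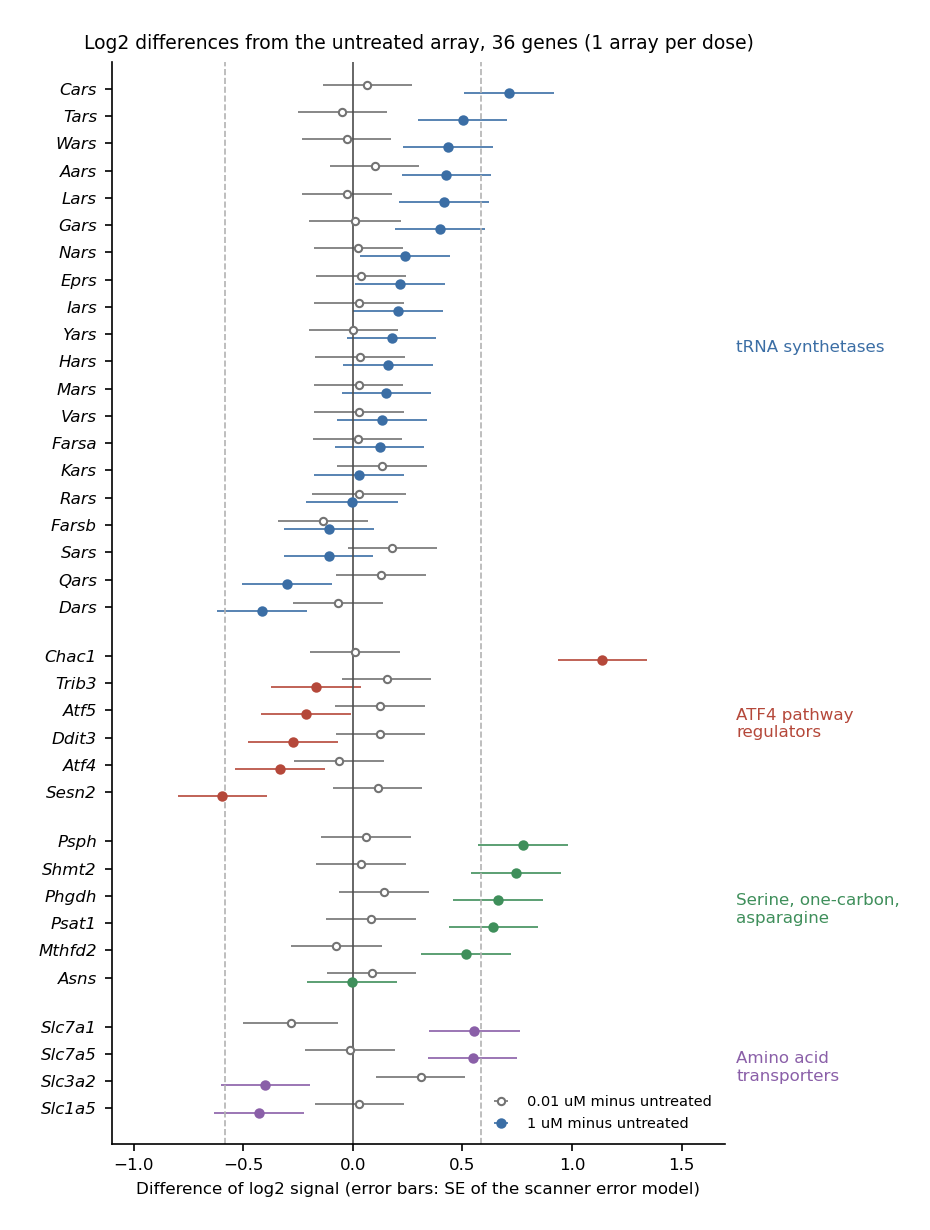
Log2 differences from the untreated array for the 36 genes, by role, with open points for 0.01 uM and filled points for 1 uM; bars are the standard error of the scanner's error model (1 array per dose) and dashed lines mark 1.5-fold. Filled points run from -0.59 (Sesn2) to 1.14 (Chac1), and open points stay between -0.28 and 0.31; with scaling on spike-in controls all 36 points at each dose lie above 0.

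Serine synthesis begins with phosphoglycerate dehydrogenase, encoded by Phgdh, which takes carbon out of glycolysis. Its signal was 4.94 on the untreated array, 5.08 at 0.01 uM and 5.60 at 1 uM. The 1 uM array is the high one, 0.66 above untreated (1.58-fold), and the 0.01 uM array lies 0.14 above it. Psat1, the aminotransferase of the next step, had signals of 4.51 untreated, 4.59 at 0.01 uM and 5.15 at 1 uM. It was 1.56-fold higher at 1 uM, a difference of 0.64. Psph, the phosphatase that releases serine, had 2.67 untreated, 2.73 at 0.01 uM and 3.45 at 1 uM. The difference of 0.78 (1.71-fold) at 1 uM is the largest of this group.

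Shmt2 encodes the mitochondrial enzyme that splits serine into glycine and a one-carbon unit. Its signals were 2.72 untreated, 2.75 at 0.01 uM and 3.46 at 1 uM, so only the 1 uM array stood apart, by 0.75 (1.68-fold). Mthfd2, the mitochondrial dehydrogenase and cyclohydrolase that carries the one-carbon unit on, had 1.01 untreated, 0.94 at 0.01 uM and 1.53 at 1 uM. It was 1.43-fold higher at 1 uM than untreated and so fell short of 1.5-fold, and against 0.01 uM its difference was 0.59. Asns, asparagine synthetase and one of the best known ATF4 targets, had 6.10 untreated, 6.19 at 0.01 uM and 6.10 at 1 uM. Its 3 signals lie within 0.09 of each other at this scaling. The difference at 1 uM from untreated was 0.28 with quantile normalization, 0.21 with loess and 0.68 with spike-in scaling.

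Of these 6 genes, 4 passed 1.5-fold on the higher side at 1 uM (66.7%) and 0 on the lower, beside 13.9% and 13.4% of all genes. The group's median difference was 0.65, the highest of the 4 groups, and stayed above 0 with every scaling tried. Psat1, Phgdh, Psph and Shmt2 stayed past 1.5-fold under all 11 other ways of processing the signals. Some of those 11 could not move them. The deposited value table has the same scaling, and the rules on dim probes do not touch a gene detected on all arrays. The calls also held under the settings that change the scaling or the background correction. The brightest probes of Phgdh lie on chromosome 3 from 98117098 to 98117157, of Psat1 on chromosome 19 from 15979970 to 15980029, of Psph on chromosome 5 from 130271443 to 130271502 and of Shmt2 on chromosome 10 from 126954811 to 126954870, all on the minus strand (mm9, as in the array files). The exon or UTR each probe lies in was not annotated here, because no mm9 gene models were used.

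**Figure D2:**
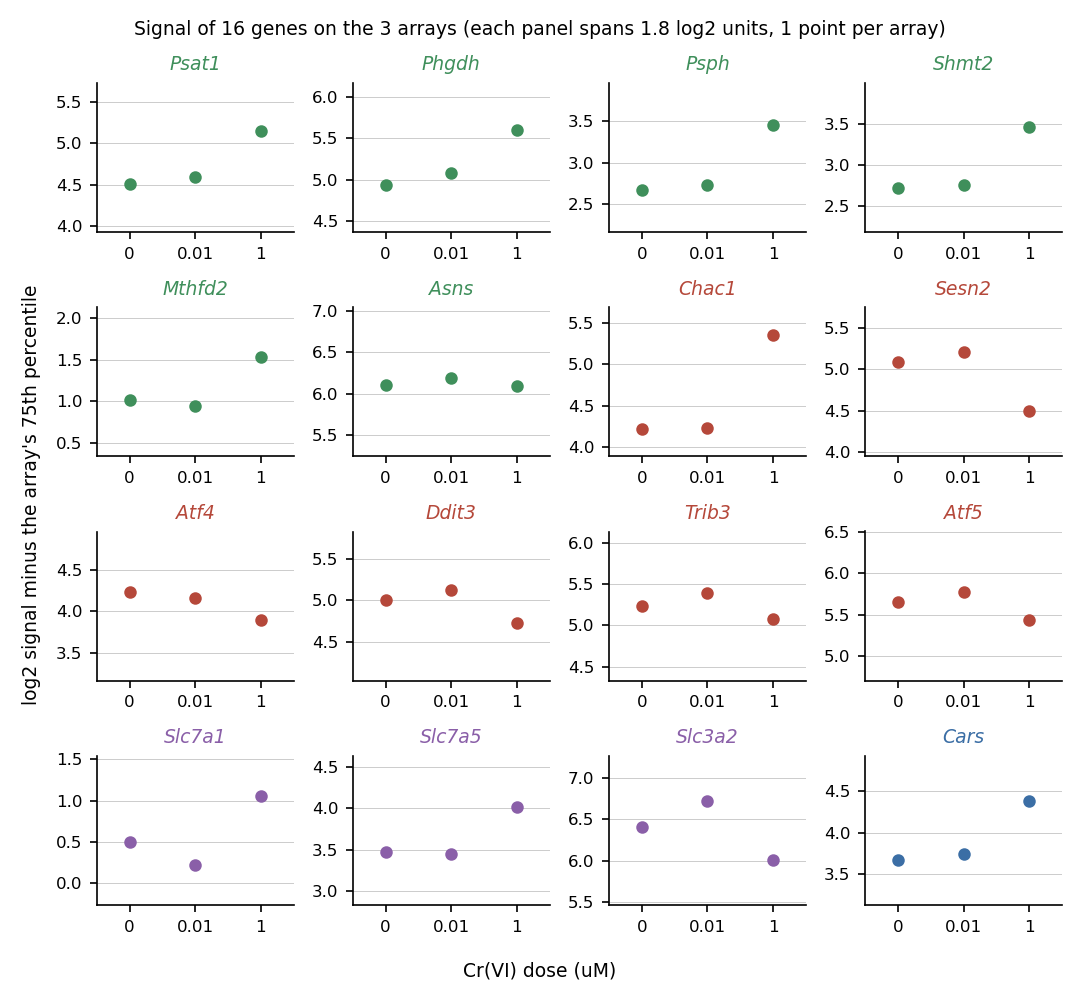
Signal of 16 genes on the untreated, 0.01 uM and 1 uM arrays (1 point per array, log2 signal minus the array's 75th percentile; each panel spans 1.8 log2 units at its own level). In Psat1, Phgdh, Psph, Shmt2, Chac1 and Cars the 1 uM point stands above the other 2, in Sesn2 and Slc3a2 it stands below them, and in Asns the 3 points are level at this scaling.

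Of the 6 regulators, 1 was at least 1.5-fold higher and 1 lower (16.7% each, close to the 13.9% and 13.4% of all genes). Chac1, a glutathione-degrading enzyme induced downstream of ATF4, had signals of 4.22 untreated, 4.23 at 0.01 uM and 5.36 at 1 uM. The first 2 arrays are level and the 1 uM array is 1.14 higher (2.20-fold), the largest difference of any member. Its single probe lies on chromosome 2 from 119179990 to 119180049 (mm9, plus strand). Sesn2, a stress-induced inhibitor of mTORC1 that senses leucine, ran the other way. Its signals were 5.09 untreated, 5.20 at 0.01 uM and 4.49 at 1 uM, so the 1 uM array was lower by 1.51-fold, a difference of -0.59. That is only just past 1.5-fold, and it stayed past it in 5 of 11 other ways of processing. Those 5 keep the same scaling and background correction. With every other scaling tried, and with normexp background correction, Sesn2 fell short of 1.5-fold.

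Atf4, the transcription factor itself, had signals of 4.23 untreated, 4.17 at 0.01 uM and 3.90 at 1 uM. Ddit3, which encodes CHOP, the pro-apoptotic factor that ATF4 induces, had 5.003 untreated, 5.13 at 0.01 uM and 4.73 at 1 uM. In both the 1 uM array is the lowest of the 3, by -0.33 for Atf4 and -0.27 for Ddit3 against untreated, neither past 1.5-fold. Trib3, a pseudokinase that feeds back on ATF4, and Atf5, a related factor also controlled at translation, differed by -0.17 and -0.21. The median of the 6 regulators was -0.24 at 1 uM, but -0.01 with quantile normalization and 0.44 with scaling on spike-in controls, where all 6 lay above 0.

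Of the 20 synthetases, 15 lay above 0 at 1 uM, with a median of 0.17, which stayed above 0 under every scaling tried. Set against the median of all genes, 16 of 20 lay above it and their median was 0.21 above it. Where dim probes are kept among all genes, those values are 12 of 20 and 0.018. One of 20 passed 1.5-fold (5.0%, under the 13.9% of all genes) and 0 were 1.5-fold lower. That one was Cars, the cysteinyl-tRNA synthetase, with signals of 3.67 untreated, 3.74 at 0.01 uM and 4.39 at 1 uM. Only the 1 uM array is high, by 0.71 (1.64-fold), and the same was true under all 11 other ways of processing. As above, some of those 11 could not move a detected gene. Its brightest probe lies on chromosome 7 from 150745052 to 150745111 (mm9, minus strand).

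After Cars came the threonyl enzyme Tars with a difference of 0.50 (1.42-fold), the tryptophanyl enzyme Wars with 0.44, the alanyl enzyme Aars with 0.43, the leucyl enzyme Lars with 0.42 and the glycyl enzyme Gars with 0.40. The next genes lie at or within the scanner error or a little past it. They are Nars (asparaginyl, 0.24), Eprs (glutamyl-prolyl, 0.22), Iars (isoleucyl, 0.21), Yars (tyrosyl, 0.18), Hars (histidyl, 0.16), Mars (methionyl, 0.15), Vars (valyl, 0.13) and Farsa, the alpha subunit of the phenylalanyl enzyme, at 0.12. Kars (lysyl) at 0.029 and Rars (arginyl) at -0.0028 were level. Farsb, the beta subunit of the phenylalanyl enzyme, and Sars (seryl) both stood at -0.11, Qars (glutaminyl) at -0.30 and Dars (aspartyl) at -0.41, the lowest of the 20. With spike-in scaling, which moves every gene by the same amount, all 20 lay above 0.

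None of the 4 transporters was 1.5-fold apart from untreated at 1 uM in either direction, where 13.9% of all genes were higher and 13.4% lower. Slc7a1, the cationic amino acid carrier, had signals of 0.50 untreated, 0.22 at 0.01 uM and 1.06 at 1 uM. It was highest at 1 uM and lowest at 0.01 uM, and the difference of 0.84 between those arrays passed 1.5-fold while that of 0.55 from untreated (1.47-fold) did not. Slc7a5, the light chain of the large neutral amino acid exchanger LAT1, was 0.55 higher at 1 uM than untreated. Its heavy chain Slc3a2 had 6.41 untreated, 6.72 at 0.01 uM and 6.01 at 1 uM. The heavy chain was thus highest at 0.01 uM and lowest at 1 uM, with differences of 0.31 and -0.40 from untreated, the opposite order to Slc7a1. This Slc3a2 probe was not flagged as saturated but lies near the scanner's ceiling. S100a4, which was saturated, read 6.45 on the untreated array. Over the 10 alternatives without spike-in scaling, the Slc3a2 difference ran from 0.029 to 0.58 at 0.01 uM and from -0.45 to -0.18 at 1 uM. Slc1a5, a glutamine carrier, was at -0.43. With spike-in scaling Slc3a2 and Slc1a5 lay above 0, at 0.28 and 0.26.

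Several members had more than 1 probe, which gives a second reading of the same RNA. Of 17 genes with several probes above background on all arrays, 15 had probes that all differed in the same direction at 1 uM, and in 13 the probes lay within 0.5 of each other. The other 2 Cars probes were at 0.59 and 0.51, the other 2 Phgdh probes at 0.71 and 0.70, the second Psph probe at 0.88 and the second Sesn2 probe at -0.76. Those probes all repeat the direction of the brightest one. The second Psph probe, a Phgdh probe and a Cars probe overlap the brightest in position, so their agreement is partly built in. Eprs, with probes from -0.39 to 0.22, and Lars, with probes from -0.16 to 0.67, are the 2 genes whose probes disagreed in sign, so their direction is uncertain. For Hars, a second probe designed on a cDNA clone differed by 1.55 while the brightest differed by 0.16. A clone probe of Farsa likewise differed by 0.77, past 1.5-fold, while its brightest probe differed by 0.12. The remaining Farsa probes were at 0.10 and 0.28.

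**Figure D3:**
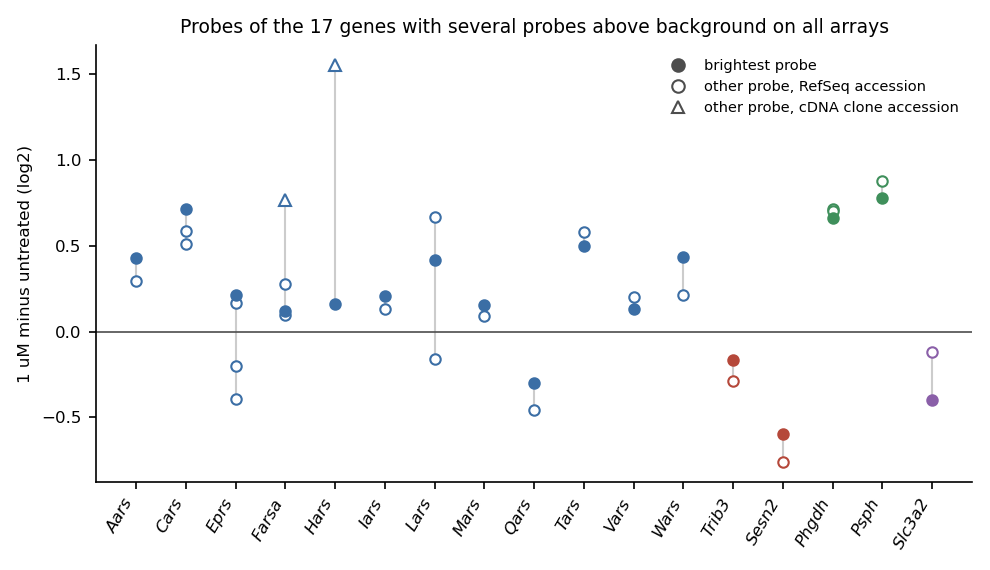
Log2 difference at 1 uM from untreated for every probe of the 17 genes with several probes above background on all 3 arrays; filled circles are the brightest probe, open circles other probes with a RefSeq accession and triangles probes of a cDNA clone. The probes of Cars, Phgdh, Psph and Tars all lie above 0 and those of Sesn2 below it, while Eprs and Lars have probes on both sides and the clone probe of Hars stands at 1.55.

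At 0.01 uM the members, read by their brightest probes, hardly differed from untreated. None of the 36 was 1.5-fold higher or lower, where 1.47% and 1.13% of all 11916 genes were, and none was 2-fold apart, where 0.269% of all genes were higher and 0.168% lower. Differences ran from -0.28 (Slc7a1) to 0.31 (Slc3a2), and the members' median of 0.03 lies beside 0.05 for all genes. A second, dimmer Slc3a2 probe, above background on all arrays, differed by 0.86, past the 0.585 that marks 1.5-fold. The size of the Slc3a2 difference at this dose thus depends on the probe. It also depends on the processing, since it fell to 0.029 at lowest under the alternatives. The medians were 0.027 for the synthetases, 0.12 for the regulators, 0.073 for the serine, one-carbon and asparagine genes and 0.0084 for the transporters. Although 27 of 36 lay above 0, that count was 4 after loess, 14 after scaling to detected probes alone (75th percentile) and 36 after spike-in scaling, so the members have no settled direction at this dose.

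Between the doses, the 1 uM array set against the 0.01 uM array gave 6 of 36 members past 1.5-fold on the higher side (16.7%, against 12.4% of all 12060 genes) and 2 on the lower (5.56%, against 17.4%). At 2-fold there was 1 higher member (Chac1) and 0 lower, against 5.2% and 6.45% of all genes. This comparison shares its 1 uM array with the one above and is no separate evidence. The higher genes were Chac1 (1.13), Slc7a1 (0.84), Psph (0.72), Shmt2 (0.71), Cars (0.65) and Mthfd2 (0.59), and the lower ones Slc3a2 and Sesn2 (both -0.71). Slc3a2 and Sesn2 each stayed past 1.5-fold in 7 of 11 other ways of processing. Psat1 and Phgdh, with differences of 0.56 and 0.52, fell short of 1.5-fold, and reached 0.87 and 0.92 at most under the alternatives other than spike-in scaling.

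Genes that work beside the members were set against them at 1 uM. Of 14 mitochondrial synthetases compared, out of 17 listed, 1 was 1.5-fold higher, 0 were lower and the median was 0.14. The shares of all genes were 13.9% and 13.4%, also for the lists that follow. The higher one was Ears2, the mitochondrial glutamyl enzyme, with signals of -1.04 untreated, -1.28 at 0.01 uM and 0.07 at 1 uM, a 2.16-fold difference. Among the 3 scaffold proteins of the multi-synthetase complex, Eef1e1 was higher (2.27 untreated, 2.25 at 0.01 uM and 2.98 at 1 uM, 1.63-fold), whereas Aimp1 and Aimp2 differed by -0.41 and -0.31.

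Upstream of ATF4, 10 genes for eIF2alpha kinases, phosphatase subunits and partners held 1 that was 1.5-fold higher and 1 that was lower (beside 13.9% and 13.4% of all genes), with a median of 0.02. Eif2ak4, which encodes the amino acid sensing kinase GCN2, had 2.74 untreated, 2.62 at 0.01 uM and 3.55 at 1 uM, 1.76-fold above untreated. Ppp1r15a, the stress-induced subunit GADD34 that brings a phosphatase to eIF2alpha and is itself an ATF4 pathway target, had 3.60 untreated, 3.69 at 0.01 uM and 2.37 at 1 uM. It was 2.35-fold lower, the largest difference below 0 in these lists.

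Of 25 other ATF4 targets and partners, 23 could be compared, and 5 were 1.5-fold higher, 2 were 1.5-fold lower (beside 13.9% and 13.4% of all genes) and the median was 0.30. Slc7a11, the cystine importer that supplies glutathione synthesis, was 4.08-fold higher at 1 uM, with signals of 0.33 there and -1.70 untreated. Gdf15, a stress-induced cytokine, had 1.42 at 1 uM and -0.18 untreated (3.03-fold), and the glycine carrier Slc6a9 had 4.09 and 3.10 in the same order (1.98-fold). Slc7a3, a cationic amino acid carrier, was not above background on the untreated array and was at least 1.62-fold higher, and Cebpg, a C/EBP partner of ATF4, was 1.63-fold higher and is the fifth. Aldh1l2, a mitochondrial folate dehydrogenase, was 1.67-fold lower and Slc1a4, a neutral amino acid carrier, 1.65-fold lower. The motif searched above was found in 8 of 21 promoters of this list (38.1%), beside 3.91% of all genes with a promoter. Of the genes named so far in this paragraph, only Slc7a11 is among the 8. The others were Pycr1 (0.45), Got1 (0.44), Fgf21 (0.34), Jdp2 (-0.03), Atf3 (-0.27), Nupr1 (-0.32) and Vldlr (-0.45), all within 1.5-fold of untreated at 1 uM (log2 differences).

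ER chaperone and unfolded protein response genes, 13 of 14 compared, had a median of 0.04. Creld2 (1.72-fold) and Hyou1 (1.53-fold) were higher and Dnajb9 was 1.90-fold lower, while Hspa5 and Hsp90b1 were saturated on both arrays of that comparison. At 0.01 uM, 0 genes of these 5 lists were 1.5-fold apart from untreated in either direction. Only 1.47% of all genes were higher and 1.13% lower at that dose, so a count of 0 is not particular to these lists.

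**Figure D4:**
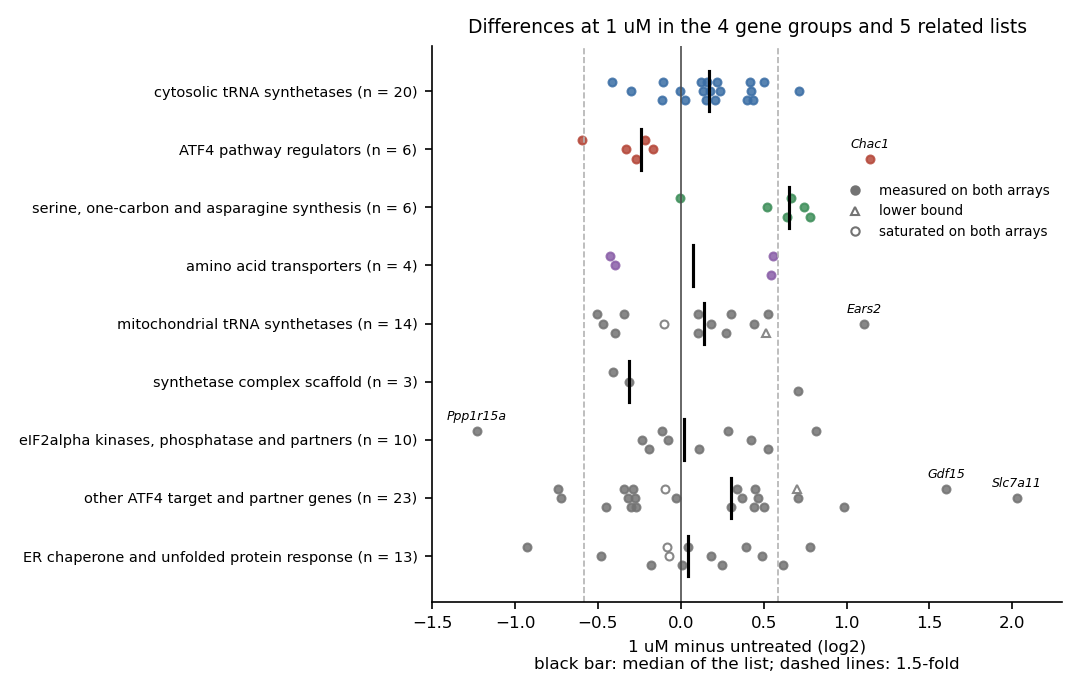
Log2 difference at 1 uM from untreated for the 4 groups of members (coloured) and 5 related gene lists (grey), 1 point per gene compared, with the median of each list as a black bar and 1.5-fold as dashed lines; triangles stand at a lower bound and open circles are genes saturated on both arrays. The serine, one-carbon and asparagine group has its median at 0.65, the regulators at -0.24 (0.44 with spike-in scaling), and the other lists have medians between -0.31 and 0.30.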

How the data were processed

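The authors deposited spot intensity from Cy3 scans read with Agilent Feature Extraction 10.5.1.1. Per the file headers, processed intensity was detrended over space and multiplicatively, and dim spots carry surrogate values. The deposited value table holds log2 values; each of its columns equals log2 processed signal minus 1 constant (9.01 at 0.01 uM, 9.56 at 1 uM, 9.45 untreated) within 0.01 for at least 99.8% of 41167 matched probes. That fixes its scale, centring and direction, and its column medians are -3.96, -4.03 and -4.23 in the same order. It has 0 columns of other samples.

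Control spots and outlier spots were left out, log2 values of a probe's spots were averaged, and each array's 75th percentile was subtracted. Since under 50% of probes were detected, the same percentile over detected probes was an alternative. A gene is its brightest probe, compared where either array had it well above background, and a dim side gives a lower bound. Genes saturated on both arrays stay in list medians at their measured difference and count as not apart. Probes were named through RefSeq (GRCm38.p6) accessions (25094 probes), symbols (6332) or synonyms (1640), and 8101 kept the file's name; coordinates of probes are mm9, from the files. All members are named, with values for every array where a member was 1.5-fold apart in any comparison and for Atf4, Asns and Ddit3. From other lists, at most 4 per direction are named. Cebpg, Aimp1, Aimp2, Hspa5, Hsp90b1 and the other ATF4 targets holding the motif were added after their values were seen. The members and lists were chosen with earlier results of these data known. Python 3.11.15 (numpy 2.4.6, pandas 2.3.3, statsmodels 0.14.6) and limma 3.58.1 in R 4.3.3 were used, and the counting was tested on simulated data. There were 12 alternatives, among them normexp (offset 50) and quantile normalization, and 2 of them were added after seeing the data: loess (span 0.4) and scaling on 5 spike-in controls. The number of arrays limits the precision.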

Additional observations from a re-analysis of the deposited data

How the results depend on the processing

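No paired analysis was possible because each group has 1 array. The differences rest on single arrays, the scaling sets where 0 lies, and dim spots limit the lists more than the members, all of which were detected. Of 138 values of 12 results over the alternatives, 98 stayed within their limits. That count includes the deposited value table and the rules on dim probes, which could hardly move the members' values. It therefore overstates how stable the results are. The cause of the other changes was not tested. For 1 uM against untreated, the synthetase median of 0.17 became 0.30 with quantile normalization, 0.30 with loess and 0.85 with spike-in scaling. The median of the 16 ATF4 and amino acid genes, 0.26, became 0.43, 0.39 and 0.94 in that order. Members at least 1.5-fold higher numbered 6 of 36 and became 11, 10 and 25, and at 2-fold 1. Of all genes, 1732 of 12452 were at least 1.5-fold higher, and 706 at 2-fold. With quantile normalization, loess and spike-in scaling these became 1839 of 12450, 2139 of 12452 and 6821 of 12452. The 1 lower member became 0 with either scaling on detected probes (75th percentile or median) and with normexp, quantile normalization, the 2-fold threshold, loess and spike-in scaling. Sesn2 turned to 0.088 with spike-in scaling. For 0.01 uM against untreated, the ATF4 and amino acid median of 0.073 became -0.048 with loess and 0.38 with spike-in scaling. Spike-in scaling also put the synthetase median at 0.33, and 1 member 1.5-fold higher, beside 992 of 11916 genes. For 1 uM against 0.01 uM, the synthetase median of 0.15 became 0.28 (75th percentile of detected probes), 0.37 (quantile), 0.36 (loess) and 0.53 (spike-in). The ATF4 and amino acid median of 0.21 became 0.34, 0.50, 0.52 and 0.59, and the 6 higher members 11, 13, 13 and 15. Beside these, 1491 of 12060 genes became 1985 of 12060, 1691 of 12059, 1987 of 12060 and 3393 of 12060. The median of detected probes gave 10 higher members, beside 1806 of 12060 genes. The 2 lower members became 0 under those 4 scalings, and at 2-fold there were 1 higher and 0 lower. The loess and spike-in settings were added once the data had been seen. Spike-in scaling moved the median of all genes by 0.68, 0.30 and 0.38 in the 3 comparisons, and loess by 0.11, -0.06 and 0.14. The percentile of detected probes and quantile normalization moved it by 0.13 and 0.10 between the doses. At 1 uM, 25 of 36 members lay above the median of all genes, but 20 without a filter on dim probes. Among all genes past 1.5-fold, the share that was higher at 1 uM than untreated was 50.9%, but 58.4% with the percentile of detected probes, 61.1% with loess and 95.1% with spike-in scaling. At 0.01 uM it was 56.5%, but 40.3%, 45.3% and 96.5% in that order and 67.0% with quantile normalization, and between the doses 41.5%, but 56.3%, 57.1% and 80.4%. Without a filter on dim probes the last 2 shares were 96.3% and 12.9%. Apart from spike-in scaling, 22 of the 23 members above 0 at 1 uM kept that sign in all 10 alternatives, the exception being Eprs, and 8 of the 13 below 0 did, the exceptions being Rars, Sars, Atf5, Trib3 and Asns.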
